A study of Mus musculus with 8 samples.

Results

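The genes described here are 35 members of the Hippo pathway and its transcriptional output, taken by symbol from the 24411 genes of the deposited count table. They comprise the coactivators Yap1 and Wwtr1, the 4 TEAD transcription factor genes, 7 genes of the core kinase cassette, 2 upstream regulators, 5 inhibitors of YAP, TAZ or TEAD, and 15 further genes known as YAP targets. RNA sequencing was done on cultured hepatocytes, the metabolic cells that make up most of the liver, from wild-type mice (WT, 4 libraries) and from mice with a conditional knockout of Taf2 restricted to hepatocytes (4 libraries). Both groups were harvested 2 days after plating and received no other stated treatment. The sources used here do not give strain, age, sex, the Cre driver, or whether the wild-type animals carried a floxed allele or Cre. Taf2 encodes a subunit of TFIID, the general transcription factor that binds core promoters. The labels number the libraries 1 to 4 in each genotype but do not state that each came from a separate animal, so p-values measure the spread between these libraries, which may be technical.

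The Hippo pathway restrains growth through a kinase cascade. The kinases MST2 and MST1 (genes Stk3 and Stk4), with the scaffold SAV1, activate LATS1 and LATS2 and their MOB1 cofactors, and LATS phosphorylates YAP and TAZ (genes Yap1 and Wwtr1), which are then held in the cytoplasm or degraded. YAP and TAZ that escape phosphorylation enter the nucleus and bind TEAD factors, which carry the DNA-binding domain and recognise the sequence GGAATG and its close variants. In the liver the pathway limits organ size, and hepatocytes that are plated on a stiff surface are known to activate YAP.

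Libraries held between 18947059 and 23933589 estimated counts. Taf2 stood at 42.2 to 46.4 CPM (counts scaled to a common library size) in the wild-type libraries and at 12.7 to 15.7 CPM in knockout libraries libraries, so every library matched its label. Of the hepatocyte markers on the list used here, all 11 found in the table were above 5 CPM in the wild type. They summed to 58330 to 63400 CPM there and to 73420 to 80630 CPM in knockout libraries. Of these 11 markers 6 were higher and 3 lower, and Alb alone went from a mean of 38020 to 55160 CPM. Most macrophage and endothelial markers were higher in the knockout. Among macrophage markers 15 of 16 tested were higher and 0 lower, and the sum of all 18 went from 124 to 155 CPM in the wild type to 294 to 323 CPM. Among endothelial markers 15 of 16 were higher and 0 lower, with sums of 80.7 to 89.9 and 208 to 216 CPM. Of 16 markers of stellate cells and fibroblasts 13 were higher and 2 lower, with sums of 227 to 246 and 220 to 234 CPM. Of 7 cholangiocyte markers tested, 3 were higher and 4 lower, with sums over all 10 of 185 to 204 CPM and 221 to 265 CPM. No marker of these lists was at 0 in all libraries. In such bulk samples a change in the number of cells of a type and a change in RNA per cell cannot be told apart.

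CPM values are scaled by edgeR's TMM factors, and fold changes are on the log2 scale, knockout against wild type, each with its standard error (SE). A gene was called when the p-value of edgeR's quasi-likelihood test, adjusted over all genes tested by the Benjamini-Hochberg method, was under 0.05. Of the 35 genes 32 passed the low-count filter, and 29 of them were called, 20 lower and 9 higher in the knockout. Over all 12122 genes tested, 61.4% were called, 31.2% lower and 30.2% higher. The called share was 64.6% among all genes whose mean reached 10 CPM, a level that 25 of the 32 reached, 23 of them called. The libraries of the genotypes did not overlap for 27 of the 32 genes, against 54.7% of all genes tested. The absolute log2 fold change was under 0.5 for 22 of the 32 genes (68.8%) and for 77.5% of all genes tested, and its median was 0.36 and 0.22. The median signed change was -0.23 for the 32 genes and 0 for all genes tested. Only Nt5e, Tead4, Nuak2 and Amotl1 were called with a change of at least 1 in either direction. Such changes were called for 9.5% of all genes tested, 2.6% lower and 6.9% higher.

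The 9 genes that rose were 4 of the core kinase cassette (Stk3, Sav1, Lats1 and Mob1a), 3 of the inhibitors (Vgll4, Amotl1 and Ptpn14) and the targets Cyr61 and Fjx1. Both coactivators, all 3 TEAD genes tested, both upstream regulators and 10 of 13 targets tested fell. Stk4, Mob1b and Arhgef17 were not called, and Tead2, Rbms3 and Foxf2 were too low to be tested.

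**Figure D1:**
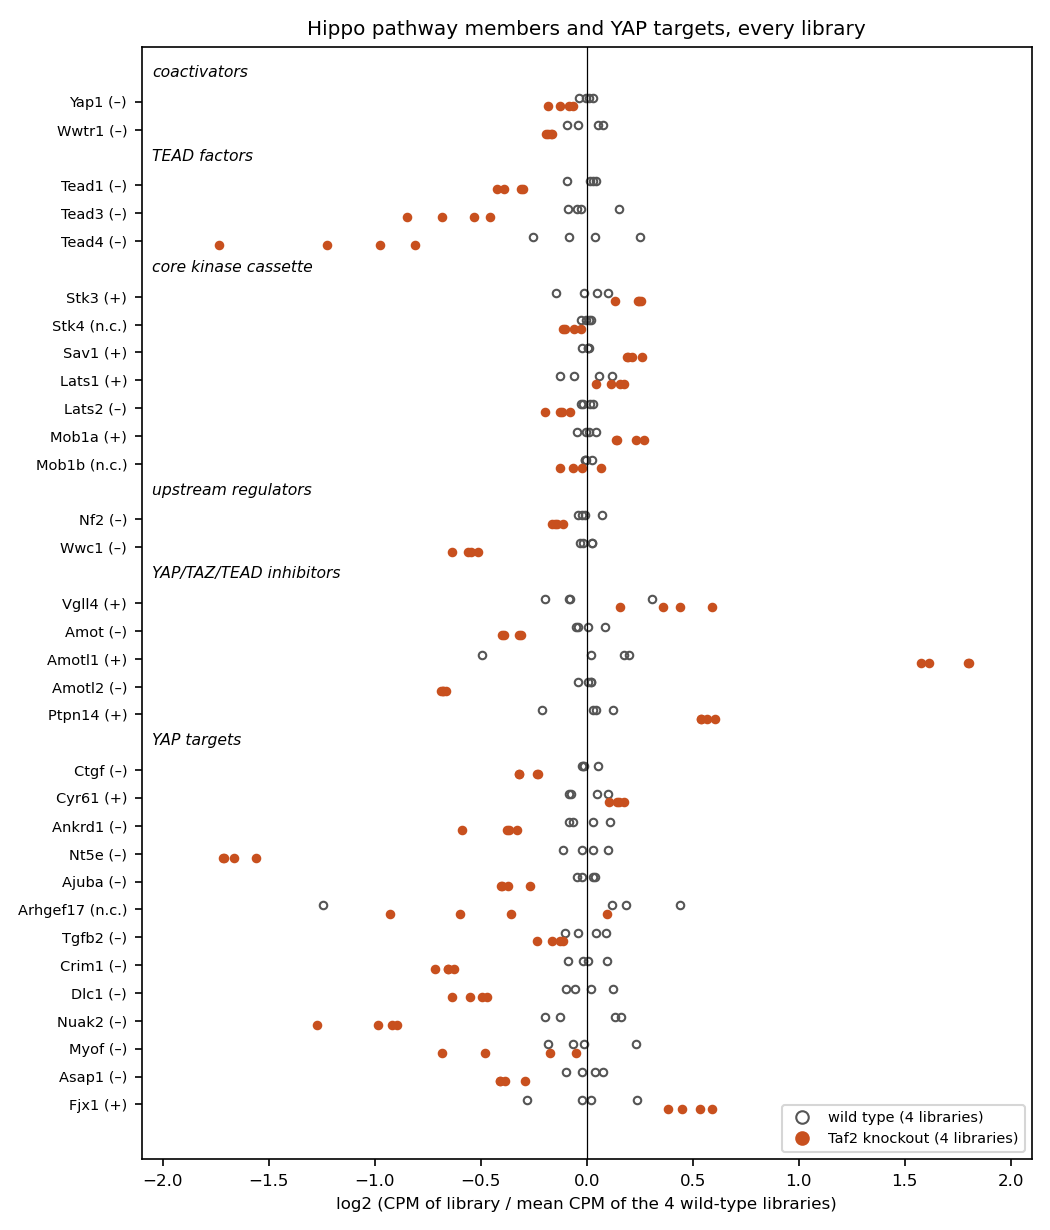
Level of each of the 32 tested genes in every library, as the log2 ratio of its CPM to the mean of the 4 wild-type libraries (horizontal axis), by role. Open points are wild-type and filled points knockout libraries, and the sign after a symbol gives the edgeR call (n.c., not called). Knockout points lie to the left for the coactivators, the TEADs and 10 of the targets, with Nt5e near -1.66 and Amotl1 near 1.70.

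Because TEAD factors are the DNA-binding partners of YAP and TAZ, the 250 bases upstream of each transcript start were searched for GGAATG on both strands (on the opposite strand it reads CATTCC). Promoter sequences from RefSeq (build GRCm38.p6, the same assembly as mm10) were matched for 26 of the 35 genes. Ctgf, Tead1, Tead4, Stk3, Arhgef17, Dlc1, Nuak2, Asap1 and Fjx1 had no matched sequence and were not searched. The motif stood in at least 1 window of 12 of these 26 genes, against 14.4% of 27025 genes in the same table. By windows it was in 14 of 32 for these genes and in 12.6% of all 32851. The 12 genes were Yap1, Wwtr1, Tead3, Sav1, Mob1a, Vgll4, Amotl2, Ptpn14, Cyr61, Ankrd1, Ajuba and Crim1. They differed in direction, since 5 rose and 7 fell, with log2 fold changes from -0.68 to 0.56. Among the 14 genes without the motif in these windows, 11 were tested, of which 2 rose and 7 fell. Windows of 1 gene overlap where its starts lie close together. Those of Amotl2, Vgll4 and Sav1 lie wholly inside the annotated span of the gene, downstream of its outermost start. The same holds for Amotl1, Amot and Tgfb2, which are counted as without the motif, so their outermost starts were not searched. An AP-1 motif (TGANTCA) and a CArG box, the site of serum response factor, were in 0 of the 26 genes, against 7.82% and 1.62% of all genes. TATAAA, searched on both strands, was in 3 of them (Cyr61, Tgfb2 and Rbms3), against 14.3%. A match describes letters in a window and is not evidence of binding.

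The windows of 6 of the 12 genes are printed because they show the same 6 letters upstream of genes that moved in opposite directions: Cyr61 and Mob1a rose, and Ankrd1, Ajuba, Crim1 and Wwtr1 fell. Each runs 5′ to 3′ on the strand of the gene and ends at the base before the transcript start, with GGAATG or its reverse complement in capitals.
Cyr61, chr3:145649986-145650235 (minus strand): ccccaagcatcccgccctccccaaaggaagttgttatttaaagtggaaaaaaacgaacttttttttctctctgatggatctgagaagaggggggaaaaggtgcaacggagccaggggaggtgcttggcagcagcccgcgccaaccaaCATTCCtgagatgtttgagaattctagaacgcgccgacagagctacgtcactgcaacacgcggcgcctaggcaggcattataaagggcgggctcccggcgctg
Mob1a, chr6:83325789-83326038 (plus strand): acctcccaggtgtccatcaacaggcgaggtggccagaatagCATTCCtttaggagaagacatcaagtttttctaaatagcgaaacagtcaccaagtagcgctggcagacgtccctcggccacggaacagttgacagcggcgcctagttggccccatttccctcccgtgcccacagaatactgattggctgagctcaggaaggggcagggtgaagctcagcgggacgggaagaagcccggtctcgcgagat
Ankrd1, chr19:36119845-36120094 (minus strand): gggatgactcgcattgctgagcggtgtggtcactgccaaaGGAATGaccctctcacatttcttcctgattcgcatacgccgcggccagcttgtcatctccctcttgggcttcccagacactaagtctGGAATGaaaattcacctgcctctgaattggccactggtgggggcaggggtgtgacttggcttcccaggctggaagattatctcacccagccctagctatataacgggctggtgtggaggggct
Ajuba, chr14:54577662-54577911 (minus strand): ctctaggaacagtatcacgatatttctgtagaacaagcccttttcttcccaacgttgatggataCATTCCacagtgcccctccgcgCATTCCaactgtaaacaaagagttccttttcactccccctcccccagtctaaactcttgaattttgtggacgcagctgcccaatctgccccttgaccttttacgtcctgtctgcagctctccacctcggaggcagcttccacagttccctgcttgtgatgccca
Crim1, chr17:78199998-78200247 (plus strand): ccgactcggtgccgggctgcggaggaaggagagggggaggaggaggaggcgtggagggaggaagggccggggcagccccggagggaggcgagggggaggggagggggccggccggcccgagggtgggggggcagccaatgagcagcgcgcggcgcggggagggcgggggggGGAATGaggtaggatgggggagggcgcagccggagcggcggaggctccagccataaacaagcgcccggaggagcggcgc
Wwtr1, chr3:57575911-57576160 (minus strand): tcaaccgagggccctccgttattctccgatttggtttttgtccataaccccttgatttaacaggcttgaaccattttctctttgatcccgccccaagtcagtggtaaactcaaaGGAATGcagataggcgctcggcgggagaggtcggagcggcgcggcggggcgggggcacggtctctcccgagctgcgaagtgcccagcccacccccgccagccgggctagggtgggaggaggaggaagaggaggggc
Ankrd1 and Ajuba carried 2 copies each, those of Ankrd1 starting 210 and 123 bases upstream of the transcript start on the strand of the gene and those of Ajuba 186 and 164 bases upstream on the opposite strand. The copy of Cyr61 started 103 bases upstream on the opposite strand, and the same window held TATAAA from 25 to 20 bases upstream.

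**Figure D2:**
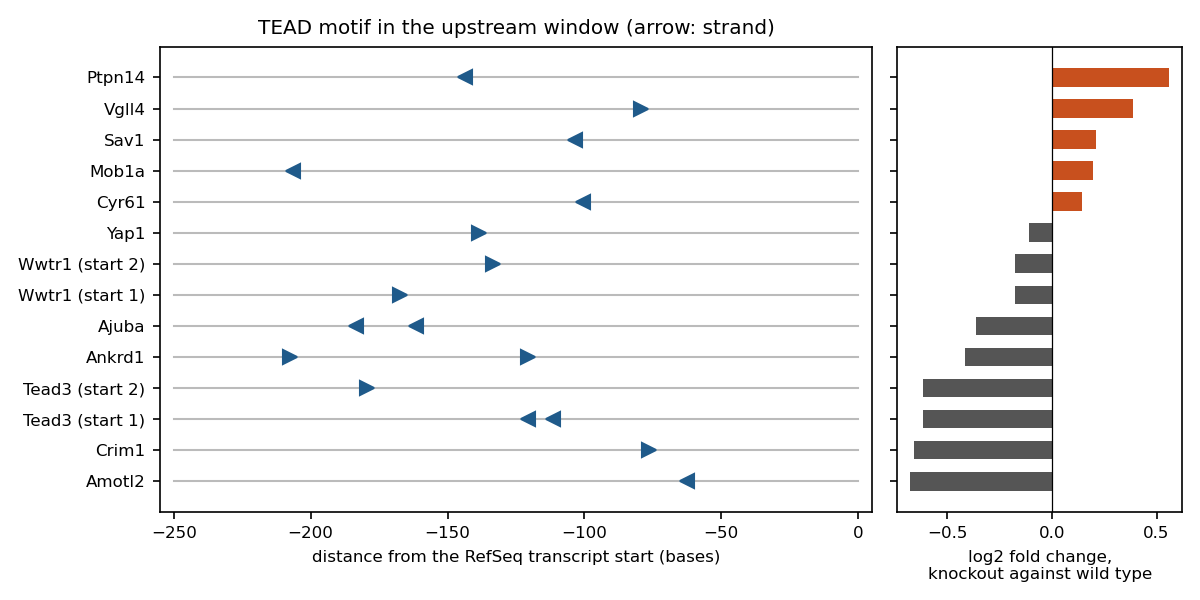
Left, position of each GGAATG match (arrow pointing right, strand of the gene; left, opposite strand) in the 250 bases upstream of the RefSeq transcript start, for the 14 windows of the 12 genes that hold it. Right, log2 fold change of the gene in the knockout; Ptpn14, Vgll4, Sav1, Mob1a and Cyr61 are above 0 and the other 7 genes below.

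The coactivator genes were slightly lower in the knockout. Yap1, on chromosome 9 from 7931999 to 8004638 (mm10), measured 131, 132, 134 and 128 CPM in wild-type replicates 1 to 4 and 121, 126, 124 and 116 CPM in knockout libraries replicates. The groups did not overlap, and the knockout mean was 92.6% of the wild-type mean (log2 fold change -0.11, SE 0.0364; edgeR adjusted p = 0.0122). Without knockout replicate 4, the lowest library, the call was lost (edgeR adjusted p = 0.0634). Wwtr1, the gene for TAZ, whose upstream window is printed above, measured 49.0, 54.2, 55.1 and 50.7 CPM in wild-type libraries and 46.0, 46.7, 46.5 and 45.8 CPM in knockout libraries. Its 4 knockout libraries lay within 1 CPM of each other and below all wild-type libraries (-0.18, SE 0.0427; edgeR adjusted p = 0.00144).

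To compare genes with each other, CPM was divided by the mean length of the transcripts listed for each gene (RPKM, CPM per kilobase of transcript). On this scale Yap1 stood at 31.7 ± 0.615 RPKM in the wild type (SD, n = 4 here and below) and Wwtr1 at 11.3 ± 0.618 RPKM, and Yap1 made up 73.7% ± 0.842 of their sum. In the knockout the share of Yap1 was 74.6% ± 0.523, and the ranges of the 2 genotypes overlapped. The log2 ratio of Yap1 to Wwtr1 counts within a library differed between genotypes by 0.06 (SE 0.0372; exact two-sided permutation test p = 0.14, adjusted over 8 pairs of genes p = 0.14). The 4 libraries per genotype therefore gave no detectable difference between the changes of Yap1 and Wwtr1.

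All 3 TEAD genes that could be tested fell. Tead1, on chromosome 7 from 112679356 to 112906784 and the most abundant TEAD gene per kilobase, measured 129, 142, 139.6 and 141 CPM in wild-type libraries and 111, 112, 103 and 105 CPM in knockout libraries, with no overlap (-0.35, SE 0.0406; edgeR adjusted p = 2.48e-07). Tead3 measured 8.89, 8.99, 10.2 and 8.62 CPM in wild-type libraries and 6.34, 5.09, 5.70 and 6.68 CPM in knockout libraries (-0.62, SE 0.0938; edgeR adjusted p = 1.04e-05). Tead4 rested on few reads, between 14 and 57 counts per library. It measured 1.95, 2.77, 2.19 and 2.39 CPM in wild-type libraries and 1.18, 0.699, 0.994 and 1.33 CPM in knockout libraries, so that the lowest wild-type library was above the highest knockout library (-1.13, SE 0.197; edgeR adjusted p = 5.17e-05). Tead2 had 2 to 8 counts per library, 18 in all over the wild type and 28 over the knockout, and was not tested.

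Per kilobase the order of the TEAD genes was the same in both genotypes: Tead1, Tead3, Tead4, Tead2. Tead1 stood at 18.4 ± 0.790 RPKM in the wild type and 14.4 ± 0.607 RPKM in the knockout, and Tead3 at 3.52 ± 0.265 and 2.29 ± 0.270 RPKM. The transcripts listed for Tead1 run from 3047 to 9964 bases, but even with the longest one its wild-type level was 13.9 RPKM, above that of Tead3. Tead1 took 80.2% ± 0.652 of the summed TEAD level in the wild type (79.4% to 80.9%) and 83.4% ± 2.21 in the knockout (81.02% to 86.4%). The ratio of Tead1 to Tead3 counts was higher on the log2 scale in the knockout by 0.26 (SE 0.115), but 1 knockout library lay within the wild-type range and the difference did not pass (exact permutation test p = 0.086, adjusted over the 8 pairs p = 0.098). The difference was 0.17 without knockout replicate 2 and 0.33 without knockout replicate 4, where it passed (exact permutation test, adjusted p = 0.033).

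**Figure D3:**
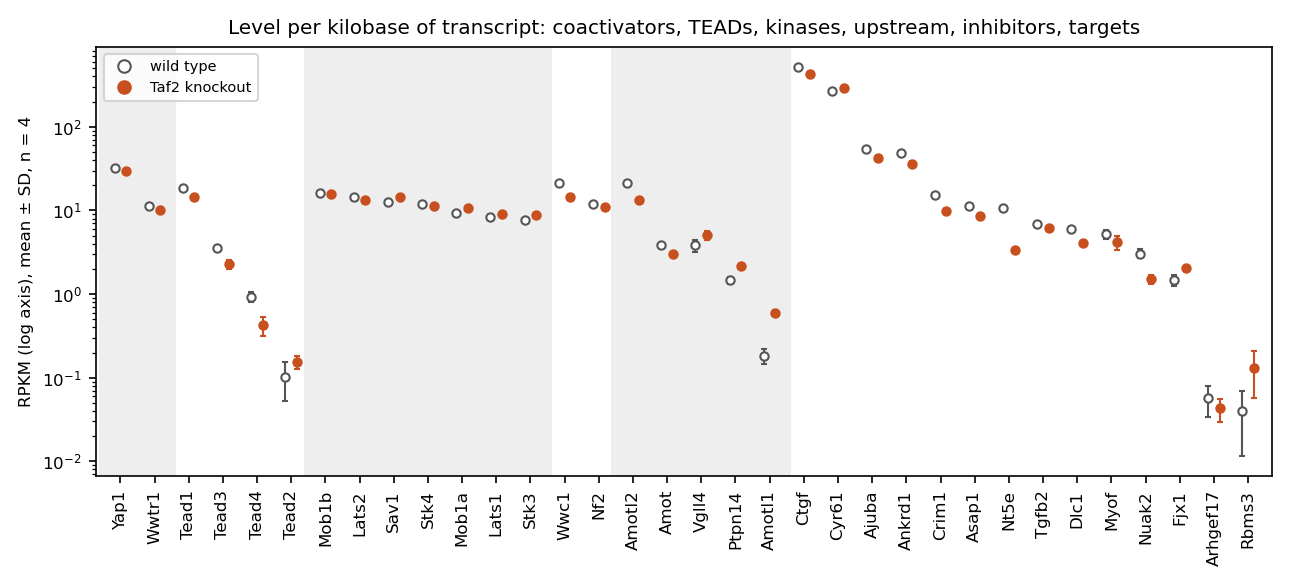
Level per kilobase of transcript (RPKM, log axis; mean ± SD of 4 libraries) of 34 genes in wild type (open) and knockout (filled), ordered within each role by the wild-type level; Foxf2, with 0 counts, is not drawn. Ctgf and Cyr61 stand highest, the core kinase genes lie between 7.65 and 16.2 RPKM, and Tead2, Arhgef17 and Rbms3 lie below 0.2 RPKM. Where the lower error bar would pass 0 it is drawn shortened.

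In the core kinase cassette 4 genes rose, 1 fell and 2 were not called, all by less than 0.25 on the log2 scale. The log2 ratio of the paralogues shifted in each of 3 pairs. Stk3, which encodes MST2, measured 20.2, 23.0, 22.1 and 23.9 CPM in wild-type libraries and 24.4, 26.6, 26.4 and 26.4 CPM in knockout libraries (0.22, SE 0.0598; edgeR adjusted p = 0.00348). Stk4, which encodes MST1, measured 61.8, 62.9, 63.8 and 63.4 CPM in wild-type libraries and 58.5, 60.3, 58.2 and 61.7 CPM in knockout libraries. Its groups were barely apart, and it was not called (-0.08, SE 0.0355; edgeR adjusted p = 0.067). The log2 ratio of Stk3 to Stk4 was -1.50 ± 0.0911 in the wild type and -1.20 ± 0.0531 in the knockout, a difference of 0.30 (SE 0.0527).

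LATS1 and LATS2 are the kinases that phosphorylate YAP and TAZ directly. Lats1 measured 54.4, 64.5, 62.0 and 57.1 CPM in wild-type libraries and 64.4, 67.2, 61.3 and 66.4 CPM in knockout libraries (0.12, SE 0.0481; edgeR adjusted p = 0.0308). The genotypes overlapped, and the call was lost without wild-type replicate 1 or 4 or without knockout replicate 2 or 4 (highest edgeR adjusted p = 0.141). Without wild-type replicate 1 the log2 fold change was 0.08. Lats2, which is itself known as a YAP target, measured 44.1, 43.7, 42.4 and 42.6 CPM in wild-type libraries and 39.9, 39.6, 37.7 and 40.9 CPM in knockout libraries, with no overlap (-0.13, SE 0.0422; edgeR adjusted p = 0.0118). Without knockout replicate 3 its call was lost (edgeR adjusted p = 0.0553). Genotypes did not overlap in the log2 ratio of Lats1 to Lats2, at 0.30 to 0.56 in the wild type and 0.69 to 0.76 in the knockout.

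Mob1a and Mob1b encode the 2 MOB1 cofactors of LATS. Mob1a, which has a GGAATG match upstream as printed, measured 39.7, 40.9, 42.3 and 41.4 CPM in wild-type libraries and 48.3, 49.5, 45.1 and 45.3 CPM in knockout libraries (0.20, SE 0.0437; edgeR adjusted p = 0.000629). Mob1b measured 43.6, 44.5, 43.6 and 43.8 CPM in wild-type libraries and 40.1, 43.1, 45.9 and 42.0 CPM in knockout libraries, where the libraries fell on both sides of the wild-type values (-0.04, SE 0.0448; edgeR adjusted p = 0.504). Sav1, the scaffold that joins MST to LATS, was at 30.9 to 31.7 CPM in wild-type libraries and 35.8 to 37.6 CPM in knockout libraries (0.21, SE 0.044; edgeR adjusted p = 0.000327). The differences in log2 ratio were 0.30 for Stk3 to Stk4, 0.25 for Lats1 to Lats2 (SE 0.0626) and 0.23 for Mob1a to Mob1b (SE 0.0656). Each passed the exact permutation test at p = 0.029, the smallest that 4 against 4 libraries allow, and p = 0.038 adjusted over the 8 pairs. The Stk3 to Stk4 difference passed whichever library was left out. That of Lats1 to Lats2 did not pass without knockout replicate 2, and that of Mob1a to Mob1b did not pass when any wild-type replicate was left out (exact permutation test, highest adjusted p = 0.076).

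Both upstream regulators fell. Nf2, which encodes merlin, a membrane-linked activator of LATS, measured 33.9, 33.5, 33.0 and 35.8 CPM in wild-type libraries and 30.8, 31.5, 30.3 and 30.6 CPM in knockout libraries (-0.14, SE 0.0463; edgeR adjusted p = 0.0112). Wwc1 (chromosome 11, 35838399 to 35980527), which encodes KIBRA, a partner of merlin, changed more. It measured 95.8, 98.4, 98.6 and 94.6 CPM in wild-type libraries and 67.9, 66.3, 62.4 and 65.6 CPM in knockout libraries, a mean of 67.7% of the wild type (-0.56, SE 0.0361; edgeR adjusted p = 4.01e-11). All 4 wild-type libraries of Wwc1 were far above all 4 knockout libraries.

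The inhibitors that bind YAP, TAZ or TEAD went in both directions. Amotl2 and Amot encode angiomotins, junction proteins that bind YAP and hold it outside the nucleus. Amotl2 measured 93.9, 93.9, 93.0 and 90.1 CPM in wild-type libraries and 58.0, 58.5, 57.5 and 58.0 CPM in knockout libraries (-0.68, SE 0.0333; edgeR adjusted p = 7.23e-13). Amot measured 19.3, 17.6, 18.3 and 17.6 CPM in wild-type libraries and 14.7, 13.8, 14.6 and 13.9 CPM in knockout libraries (-0.35, SE 0.0619; edgeR adjusted p = 5.38e-05). For both the genotypes were well apart. Amotl1, the third angiomotin gene (chromosome 9, 14541966 to 14662974), measured 1.86, 1.90, 1.67 and 1.17 CPM in wild-type libraries and 5.75, 5.74, 5.05 and 4.92 CPM in knockout libraries, from 25 to 136 counts per library (1.70, SE 0.142; edgeR adjusted p = 2.58e-09). It had the largest rise of the 32 genes tested and remained the lowest angiomotin gene, at 0.721% ± 0.134 of the summed angiomotin level per kilobase in the wild type and 3.52% ± 0.265 in the knockout. Amotl2 took 84.0% ± 0.480 and 78.6% ± 0.575 of that sum. The log2 ratio of Amotl1 to Amotl2 differed by 2.34 (SE 0.149; exact permutation test p = 0.029, adjusted over the 8 pairs p = 0.038). In the same knockout libraries 30 of the 32 macrophage and endothelial markers tested were higher. Of 16 markers of stellate cells and fibroblasts 13 were higher and 2 lower. The part of these cell types in the rise of Amotl1 was not tested.

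Ptpn14 encodes a phosphatase that retains YAP in the cytoplasm and is also known as a YAP target. It measured 17.3, 16.2, 16.3 and 13.7 CPM in wild-type libraries and 23.1, 23.5, 23.0 and 24.1 CPM in knockout libraries, with no overlap (0.56, SE 0.0664; edgeR adjusted p = 3.94e-07). Vgll4, whose product competes with YAP for TEAD, measured 6.81, 7.38, 7.36 and 9.65 CPM in wild-type libraries and 10.6, 11.7, 8.68 and 9.99 CPM in knockout libraries. Here the genotypes overlapped, since wild-type replicate 4 was above knockout replicate 3 (0.39, SE 0.107; edgeR adjusted p = 0.00367).

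Among the 15 YAP targets, 10 fell, 2 rose, Arhgef17 was not called, and Rbms3 and Foxf2 were not tested. The median log2 fold change of the 13 tested was -0.37. Ctgf, Cyr61 and Ankrd1 are the targets most often used as a readout of YAP activity, and they did not move together. Ctgf, now named Ccn2 (chromosome 10, 24595442 to 24598683), encodes a secreted matricellular protein and measured 1213, 1220.0, 1217 and 1276 CPM in wild-type libraries and 988, 1045, 985 and 1048 CPM in knockout libraries (-0.28, SE 0.0351; edgeR adjusted p = 9.91e-07). Ankrd1, which encodes a nuclear ankyrin repeat protein, measured 92.8, 105, 91.6 and 99.0 CPM in wild-type libraries and 75.2, 74.8, 64.5 and 77.3 CPM in knockout libraries (-0.41, SE 0.0519; edgeR adjusted p = 8.92e-07). Both were apart between genotypes. Cyr61, the gene of a related matricellular protein (now Ccn1), measured 508, 552, 505 and 574 CPM in wild-type libraries and 603, 574, 589 and 593 CPM in knockout libraries. Its lowest knockout library exceeded the highest wild-type library by less than 1 CPM, and the means were 534 ± 33.9 and 589.8 ± 11.9 CPM (0.14, SE 0.0408; edgeR adjusted p = 0.00512). Its log2 fold change stayed between 0.11 and 0.18 over 16 alternative analyses, with edgeR, limma-voom and DESeq2 adjusted p-values between 0.00107 and 0.027.

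The difference between these targets was tested directly. The log2 ratio of Ctgf to Cyr61 was 1.26, 1.14, 1.27 and 1.15 in the wild-type libraries and 0.71, 0.86, 0.74 and 0.82 in the knockout libraries. It was lower in the knockout (difference -0.42, SE 0.0483) in 4 of 4 libraries. The log2 ratio of Ankrd1 to Cyr61 went from -2.46 ± 0.0559 to -3.02 ± 0.119 (difference -0.56, SE 0.0658). Both passed the exact permutation test at p = 0.029, or p = 0.038 adjusted over the 8 pairs. The pairs share Cyr61, so they are not independent of each other. Per kilobase, Ctgf remained the most abundant of the 35 genes in both genotypes, at 514 ± 12.5 and 424 ± 14.5 RPKM, followed by Cyr61 at 265 ± 16.8 and 292 ± 5.91 RPKM.

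**Figure D4:**
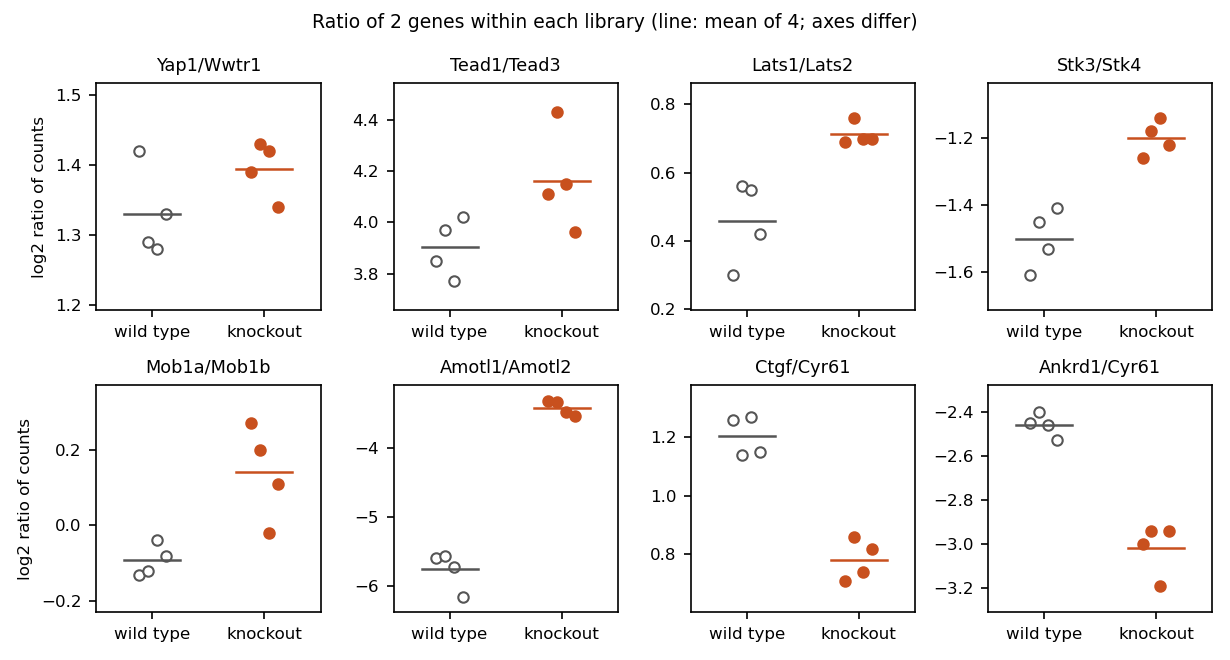
Log2 ratio of the counts of 2 genes within each library, for 8 pairs; open points are wild-type and filled points knockout libraries, lines are means of 4, and the vertical axes differ between panels. The genotypes do not overlap for 6 pairs and overlap for Yap1/Wwtr1 and Tead1/Tead3. The share of other gene pairs without overlap was not computed; for single genes it was 54.7% of all tested.

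Nt5e, on chromosome 9 from 88327609 to 88372089, encodes the ectonucleotidase CD73 and had the largest fall of the 32 genes. It measured 39.2, 41.7, 45.4 and 43.1 CPM in wild-type libraries and 12.9, 14.3, 13.3 and 12.9 CPM in knockout libraries, a mean of 31.6% of the wild type (-1.66, SE 0.0592; edgeR adjusted p = 6.07e-15). Nuak2, a kinase gene of the AMPK family, measured 8.02, 8.41, 10.1 and 10.3 CPM in wild-type libraries and 4.87, 4.94, 3.80 and 4.64 CPM in knockout libraries, 49.7% of the wild type (-1.01, SE 0.108; edgeR adjusted p = 9.17e-08). Crim1, which encodes a transmembrane protein that binds BMPs, measured 86.9, 92.6, 98.6 and 91.3 CPM in wild-type libraries and 58.7, 59.8, 58.6 and 56.1 CPM in knockout libraries (-0.66, SE 0.0401; edgeR adjusted p = 1.66e-11). For these 3 genes the highest knockout library was well below the lowest wild-type library.

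Several targets that act on adhesion and the actin cytoskeleton fell by smaller amounts. Ajuba, a LIM protein gene whose product sits at junctions and inhibits LATS, measured 187, 177, 189 and 181 CPM in wild-type libraries and 142, 152, 139 and 138 CPM in knockout libraries (-0.36, SE 0.0389; edgeR adjusted p = 1.03e-07). Dlc1, a GTPase-activating protein gene, was at 32.3 to 37.6 CPM in wild-type libraries and 22.2 to 24.9 CPM in knockout libraries (-0.54, SE 0.0571; edgeR adjusted p = 8.72e-08). Asap1, an Arf GTPase-activating protein gene, was at 49.2 to 55.5 CPM and 39.6 to 43.0 CPM (-0.37, SE 0.0456; edgeR adjusted p = 5.72e-07). None of the 3 overlapped between genotypes. Tgfb2, the gene of a TGF-β ligand, was at 33.0 to 37.7 CPM and 30.1 to 32.7 CPM (-0.16, SE 0.0514; edgeR adjusted p = 0.012), and its call was lost without knockout replicate 4 (edgeR adjusted p = 0.0505). Myof, which encodes the membrane repair protein myoferlin, measured 33.8, 31.2, 41.5 and 35.03 CPM in wild-type libraries and 25.4, 31.3, 22.0 and 34.1 CPM in knockout libraries. Knockout replicates 2 and 4 lay within the wild-type range (-0.33, SE 0.102; edgeR adjusted p = 0.00863), and DESeq2 did not call it (adjusted p = 0.0819).

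Fjx1, which encodes a secreted Golgi kinase relative of Drosophila four-jointed, was the other target that rose. It measured 4.64, 5.39, 3.76 and 4.50 CPM in wild-type libraries and 6.89, 6.24, 5.96 and 6.63 CPM in knockout libraries (0.49, SE 0.107; edgeR adjusted p = 0.000551). Arhgef17, a guanine nucleotide exchange factor gene, was at 0.243 to 0.781 CPM in wild-type libraries and 0.302 to 0.616 CPM in knockout libraries, from 5 to 18 counts per library (-0.42, SE 0.352; edgeR adjusted p = 0.312). Rbms3, an RNA-binding protein gene that stellate cells and fibroblasts express, had 3, 4, 4 and 0 counts in the wild-type libraries and 17, 3, 8 and 11 in the knockout libraries, so the genotypes overlapped. Foxf2, a mesenchymal transcription factor gene, had 0 counts in all 8 libraries. A count of 0 here allows up to 3 counts, or 0.127 to 0.157 CPM depending on the library.

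Other genes of the pathway came from 4 lists. Of 97 genes tested, 32 were higher, 36 lower and 29 not called, with a median log2 fold change of -0.04, so 70.1% were called against 61.4% of all genes tested. Among other upstream regulators, 10 of 25 rose and 9 fell. Fat1, an atypical cadherin gene and the most abundant of that list, fell from 379 ± 25.8 to 233 ± 18.0 CPM. The kinase gene Taok3 fell from 59.6 ± 2.28 to 44.0 ± 2.30 CPM and Rassf3 from 127 ± 4.43 to 99.96 ± 1.87 CPM. Rassf1 and Rassf4 encode RASSF proteins, scaffolds that share the SARAH domain of SAV1, and rose from 57.8 ± 2.39 to 85.8 ± 1.88 CPM and from 4.57 ± 0.673 to 46.5 ± 5.48 CPM. Rassf2 rose from 0.142 ± 0.0379 to 1.56 ± 0.257 CPM. Macrophage and endothelial markers were higher in the same libraries, as were 13 of 16 markers of stellate cells and fibroblasts, with 2 lower. The part of these cell types in the rises was not tested.

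STRIPAK is the phosphatase complex that inactivates MST kinases. Only 5 of its 16 tested genes (31.2%) were called, 2 higher and 3 lower. Its most abundant gene, Ppp2ca, the catalytic subunit of PP2A, was at 245 ± 2.53 CPM in wild-type libraries and 237 ± 7.40 CPM in knockout libraries (edgeR adjusted p = 0.247). The subunit genes Slmap, Strn and Strn3 fell, by 0.36, 0.35 and 0.17 on the log2 scale, and Cttnbp2nl and Pdcd10 rose by 0.64 and 0.18.

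Of 26 other partners and inhibitors of YAP and TAZ, 14 fell and 6 rose. Ctnna1 encodes α-catenin of adherens junctions and fell from 697 ± 11.3 to 559.8 ± 9.38 CPM. The 14-3-3 gene Ywhaz, whose product binds phosphorylated YAP, fell from 583 ± 16.4 to 476 ± 8.71 CPM, and Ywhag, the most abundant gene of the list, from 662 ± 3.65 to 628 ± 9.98 CPM. Scrib, Llgl1 and Dlg1, which encode scaffold proteins of the basolateral membrane, rose by 0.37, 0.35 and 0.27, whereas the polarity genes Crb3, Mpp5 and Pard3 of the same list fell, by 0.58, 0.19 and 0.11 (these 3 were chosen after their values were seen).

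Of 30 other YAP targets tested, 14 rose and 10 fell, with a median of 0.05. Their median absolute log2 fold change was 0.69, against 0.22 for all genes tested, so changes in both directions lay behind that median. Flna, the filamin A gene and the most abundant, fell from 1935 ± 73.5 to 1343 ± 52.3 CPM, Dock5 from 104 ± 3.43 to 69.7 ± 4.08 CPM and Birc2 from 39.6 ± 0.627 to 21.2 ± 1.15 CPM. Part of the reads of Birc2 was shared with other genes in 7 libraries. The EGF receptor ligand gene Areg rose from 2.17 ± 0.184 to 17.1 ± 1.93 CPM. The receptor gene Axl, which macrophages also express, rose by 2.75 (SE 0.154) in libraries whose summed macrophage markers were higher as well, and the part of those cells was not tested. In this second list 10 of 30 genes fell, against 10 of the 13 targets tested above, and the difference between the lists was not tested.

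**Figure D5:**
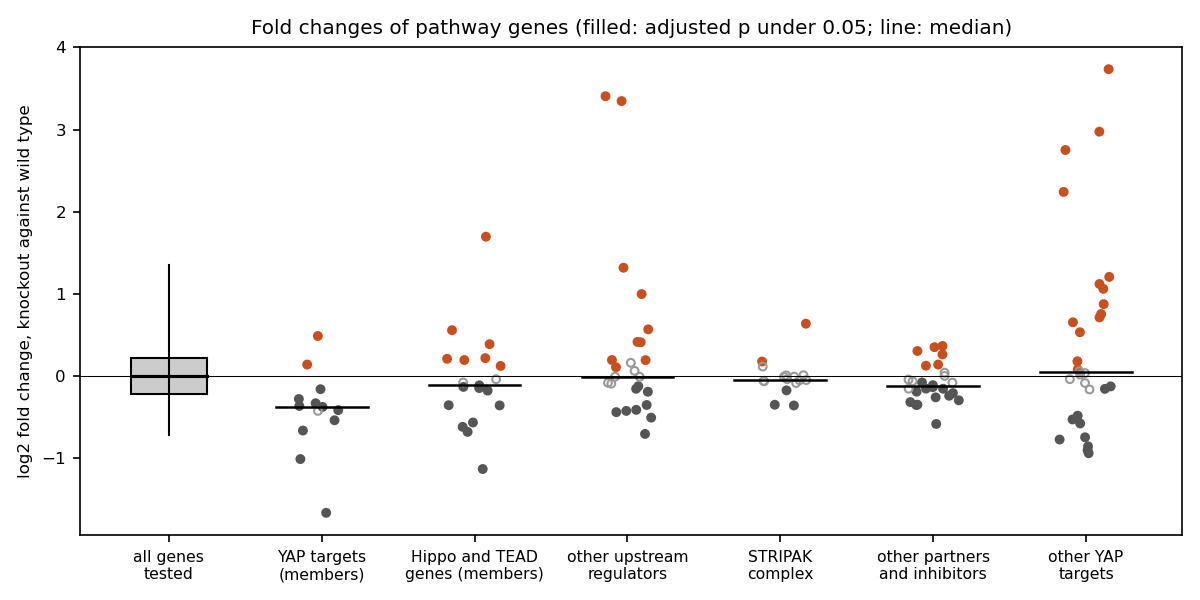
Log2 fold change (knockout against wild type) of all genes tested (box, quartiles; line ends, 5th and 95th percentiles, -0.71 and 1.36) and of each tested gene in the 2 groups of members and the 4 further lists. Filled points passed edgeR at an adjusted p under 0.05, open points did not, and lines are medians, -0.37 for the member targets and 0.05 for the other YAP targets.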

How the data were processed

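The authors deposited expected counts per gene, and the submitters' processing notes name RSEM and build mm10. The RSEM version, aligner and strand setting were not given in the sources used here. Per the labels' protocols, the library kit was Illumina TruSeq RNA and the libraries were sequenced in more than 1 round. Columns were matched to samples by library name, and 8 columns that match no sample were not used. Expected counts were rounded to whole numbers, which 2.85% of values were not, though all counts of the 35 genes were whole. Genes were filtered with filterByExpr (minimum count 10, minimum total count 15), scaled by TMM and compared by genotype with edgeR's quasi-likelihood test (R 4.3.3, edgeR 4.0.16), two-sided and adjusted over 12122 genes. The gene symbols Ctgf and Cyr61 were matched to Ccn2 and Ccn1 by RefSeq accession. Lengths came from GENCODE transcripts matched by accession. Ratios of 2 genes used a prior count of 2. The fit was also run on simulated counts, with the same spread for all genes and far fewer changed genes than were called here. That run does not bear on the calls in these data, and its outcome is not reported here. Replicates differed beyond sampling noise (chi-square per degree of freedom 3.18 to 8.64).

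The 35 genes and the lists were chosen with earlier results of these data known. All 35 may be named. From each of the 4 other lists the most abundant gene and, in each direction, up to 3 called genes ranked by adjusted p were named. Some of these genes are not reported here. The alternatives tried were scaling by RLE or by upper quartile, DESeq2 1.42.0, limma-voom (limma 3.58.1), 2 other filters, thinning, a replicate block and leaving out each library.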

Additional observations from a re-analysis of the deposited data

Results flagged for a closer look

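Each tested gene was examined in each genotype for a library far from the other 3 (a gap beyond Dixon's 95% critical value), and 3 of 64 such groups had one. Chance flags about 1 in 20 groups. Stk3 in knockout replicate 1 was at 24.4 CPM, against 26.4 to 26.6 CPM in the other knockout libraries. Sav1 in wild-type replicate 3 was at 30.9 CPM, against 31.6 to 31.7 CPM in the others. Ctgf in wild-type replicate 4 was at 1276 CPM, against 1213 to 1220.0 CPM in the others. Leaving out any of these libraries ended none of these 3 genes' calls.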

How the results depend on the processing

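Of the 32 genes tested, 27 kept their side of the threshold in every alternative run. There were 16 alternatives for most genes and 15 for Tead4 and Arhgef17, which a minimum count of 50 removed. The exceptions were Lats1 (4 libraries left out in turn), Yap1, Lats2 and Tgfb2 (1 library each) and Myof (DESeq2), as given beside their values, and no called gene reversed. Between 26 and 30 of the 35 genes were called, the lowest number without knockout replicate 4. Of all genes tested 48.4% (no low-count filter) to 63.0% (minimum count 50) were called, and scaling by RLE or upper quartile moved the median log2 fold change of all genes by 0.005 and 0.024. Differences in log2 ratio without 1 library ranged from 2.21 to 2.41 for Amotl1/Amotl2, from -0.45 to -0.40 for Ctgf/Cyr61, from -0.58 to -0.50 for Ankrd1/Cyr61, from 0.20 to 0.29 for Lats1/Lats2, from 0.26 to 0.33 for Stk3/Stk4 and from 0.19 to 0.29 for Mob1a/Mob1b. For Tead1/Tead3 they ranged from 0.17 to 0.33 and for Yap1/Wwtr1 from 0.05 to 0.09. Of these 8 omissions all 8 left Amotl1/Amotl2, Ctgf/Cyr61, Ankrd1/Cyr61 and Stk3/Stk4 past the exact permutation test, 7 left Lats1/Lats2 and 4 Mob1a/Mob1b past it, 1 brought Tead1/Tead3 past it and 0 Yap1/Wwtr1.

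Same-numbered libraries did not deviate together (correlations from -0.16 to 0.022), and 0 of 8 libraries correlated best with its own number. No pairing by number was seen, but with 4 libraries per genotype these correlations cannot exclude one. With the replicate number as a block 7437 genes and 29 of the 35 were called. An exact sign-flip permutation test over 4 numbered pairs cannot go below p = 0.125, so the ratios could not pass that test. No other paired test of the ratios was run. Levels per kilobase rest on the mean length of the listed transcripts, and for Lats2, whose listed transcripts run from 786 to 5191 bases, they are uncertain. They are also uncertain for Tead1 (3047 to 9964 bases), Amot (2392 to 6957), Nf2 (1795 to 4720) and Rbms3 (1983 to 7908). Wild-type Amot was at 2.61 RPKM with its longest transcript and 7.60 RPKM with its shortest. The SDs of the angiomotin and TEAD shares do not include this uncertainty. Depth limits Tead2, Tead4, Arhgef17, Rbms3 and Foxf2.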

Other observations

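Libraries of a genotype varied by different amounts from gene to gene. Among the 25 genes that reached 10 CPM on average, Myof had the largest coefficient of variation in the knockout, 19.5%, with 22.0 and 25.4 CPM in replicates 3 and 1 and 31.3 and 34.1 CPM in replicates 2 and 4. Amotl2 had the smallest in the knockout, 0.684%, from 57.5 to 58.5 CPM, followed by Wwtr1 at 0.884%. With no low-count filter Rbms3 was called higher (log2 fold change 1.70, SE 0.544; edgeR adjusted p = 0.00739) from 11 counts in all over the wild type and 39 over the knockout, and Tead2 was not (0.56, SE 0.481; edgeR adjusted p = 0.365). Both rest on at most 17 counts in a library.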
